A study of Rattus norvegicus with 82 samples.

Results

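Cardiomyocytes of the right ventricle (RV) were compared between 2 kinds of failing rat heart: hearts whose RV itself carried the pressure load, and hearts whose load lay on the left ventricle (LV), so that the RV was the remote chamber. The libraries were chosen by their labels alone: the RV libraries of rats with pulmonary artery banding in heart failure (PAB-F, n = 6) and the RV libraries of rats with aortic banding in heart failure (AOB-F, n = 7), 13 of the 82 libraries of the series. All rats were offspring of female Wistar Kyoto and male Lewis rats and received a clip that did not narrow the vessel at surgery, so that the load rose as the animals grew. By the labels the PAB-F rats, 4 male and 2 female, were 28 weeks old and 22 weeks past surgery, and the AOB-F rats, 4 male and 3 female, were 31 weeks old and 26 weeks past surgery. The paper gives somewhat different ages. The site of the clip and the time under load therefore cannot be told apart in this comparison. Sham-operated RV libraries of the failing stage (Sham-F, n = 9, 4 male and 5 female, 31 weeks old and 26 weeks past surgery), the LV libraries of the same animals and the RV libraries of the compensated hypertrophic stage (PAB-H and AOB-H, n = 6 each, 11 weeks old and 7 weeks past surgery) served as references. The PAB-H rats were 4 male and 2 female, the AOB-H rats 2 male and 4 female. Each RV library came from a different animal. All hearts were digested with collagenase and the cells enriched by filtration and slow centrifugation, so the libraries hold the RNA of a cell preparation in bulk, in which fewer cells of a type and less RNA per cell cannot be told apart.

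The RV normally works against the low pressure of the lung circulation, and a rise of that pressure stretches its wall and calls forth hypertrophy. Stretched cardiomyocytes re-express genes of the fetal heart, among them the natriuretic peptides and skeletal α-actin, release growth factors and matrix proteins, and turn away from fatty acid oxidation. A failing LV reaches the RV through raised filling pressures, circulating hormones and the shared septum, without a clip on the RV outlet. Setting PAB-F against AOB-F in the RV therefore asks which transcripts follow the load on the chamber when heart failure is present in both groups.

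The raw counts on genes summed to 9021262 to 15898376 in the RV PAB-F libraries and 11482907 to 16335647 in the RV AOB-F libraries. The 9 ventricular cardiomyocyte markers, such as *Myh6* and *Tnnt2*, took 7.36% to 12.6% of the counts in the 13 libraries. The 5 neutrophil markers, of which 0 passed the filter on low counts, took at most 5.54e-05% in RV PAB-F and 0.000213% in RV AOB-F. The 3 red blood cell markers found took at most 0.00491% and 0.00082%. In these lists *Mpo* and *Hba1* were at 0 in all 13 libraries. Of the other markers tested, 2 of 9 for fibroblasts (*Fap* and *Postn*), 1 of 4 for atrial cardiomyocytes (*Nppa*) and 1 of 4 for the epicardium (*Wt1*) were called between the groups, and 0 of the endothelial, mural, macrophage and Schwann cell lists. The medians of these last lists were 0.497, 0.0645, -0.0366 and -0.47 on the log2 scale. The endothelial share was 0.0824% to 0.147% in PAB-F without RV PAB-F 1, and 0.0775% to 0.107% in AOB-F. The part of endothelial cells in the differences between the groups was not tested. In all, 3 libraries stood apart. RV PAB-F 1, the shallowest, lay at 72.2 on the first principal component (29.6% of the variance), with the other 12 between -22.4 and 27, and its fibroblast markers took 0.194% of the counts, against 0.0261% to 0.0755% in the other PAB-F libraries and 0.0296% to 0.0424% in AOB-F. It also had the largest macrophage share of the 13 (0.0211%, against at most 0.0095% in the other PAB-F libraries), the largest endothelial (0.196%) and lymphocyte (0.00254%) shares and the smallest cardiomyocyte share (7.36%). RV AOB-F 6 and RV AOB-F 7 lay at 33.6 and 51.8 on the second component (18.6%), with the others between -21 and 8.97, and their macrophage markers took 0.0129% and 0.0163%, against at most 0.00736% in the other AOB-F libraries. The neutrophil markers of RV AOB-F 6 and 7 took 7.23e-05% and 0.000213%, against at most 1.74e-05% in the other AOB-F libraries. Where the fit was repeated, results that rest on these libraries are given with and without them.

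Of 11954 genes tested, 497 (4.16%) differed between RV PAB-F and RV AOB-F at an adjusted p under 0.05 in edgeR's quasi-likelihood test, here called genes. In the loaded RV 295 of them (2.47%) were higher and 202 (1.69%) lower, and 133 and 29 of these differed more than 2-fold. The criteria of the study, a change above 2-fold, a mean normalised count above 50 in at least 1 group and a p no larger than 0.01 before adjustment, were met by 133 genes (1.11%), 104 higher (0.87%) and 29 lower (0.243%). The higher genes thus made up 59.4% of the calls and 78.2% of those that met the criteria. The study set its criteria on shrunken DESeq2 fold changes against sham, whereas the edgeR fold changes used here are not shrunken. With shrunken DESeq2 fold changes between RV PAB-F and RV AOB-F, 86 genes met the criteria, 62 of them higher. With upper-quartile scaling, under which the median of all genes moved from 0.0119 to 0.0491 on the log2 scale, 69.5% of the calls were higher (354 against 155). The majority turned in other fits: higher genes made up 46.6% of the calls without a filter on low counts, 48% in a fit to the RV libraries, 45.7% with voom weights and 47.1% with the replicate number as a block, whereas they made up 70.1% to 79.5% of the genes that met the criteria in these fits. For 282 genes (2.36%) the groups' libraries did not overlap, with RV PAB-F above in 140 (1.17%) and below in 142 (1.19%). Of these, 108 (0.903% of the genes tested) were also called, 59 higher (0.494%) and 49 lower (0.41%).

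Both groups were also set against RV Sham-F, a group the 2 contrasts share. RV Sham-F matched RV AOB-F in age and time past surgery (31 and 26 weeks) but not RV PAB-F (28 and 22 weeks). Banding therefore cannot be told apart from age in the contrast of RV PAB-F with RV Sham-F. RV PAB-F differed from RV Sham-F in 1325 genes (11.1%), 916 higher (7.66%) and 409 lower (3.42%). RV AOB-F differed from RV Sham-F in 8 genes (0.0669%), all of them higher, among them *Nppa*, *Pik3c2g*, *Lcn2*, *Akip1*, *Ncam1*, *Reg3b* and *Crym*. A further count without adjustment gave 517 genes at a p under 0.05 in RV AOB-F.

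How many genes were called depended on single libraries. Leaving out RV PAB-F 1 lowered the count from 497 to 80 genes, 41 higher and 39 lower, whereas leaving out RV PAB-F 4 raised it to 695. The count was 218 without RV PAB-F 2, 298 without RV AOB-F 5, 324 without RV AOB-F 6 and 218 without RV AOB-F 7. It came to 232 without RV AOB-F 1 and 6 together (134 higher) and 167 without RV AOB-F 6 and 7 (116 higher). Of the 295 genes called higher, RV PAB-F 1 was the highest PAB-F library in 215, and RV PAB-F 6, 3 and 4 were the lowest in 118, 77 and 76. Of the 202 called lower, RV PAB-F 1 was the lowest PAB-F library in 144 and RV AOB-F 7 the highest AOB-F library in 126. The RV PAB-F libraries thus lay at unequal distances from the remote RV, with PAB-F 1 the farthest in most called genes. A set of 64 genes, 38 higher and 26 lower, was called whichever 1 of the 13 libraries was left out, 22 of them among the 72 called genes chosen by the rule for named genes. Of these 72, 24 kept their call without RV PAB-F 1, 48 without RV AOB-F 1 and 6, and 40 without RV AOB-F 6 and 7. The 24 lost without RV AOB-F 1 and 6 included *Rsad2*, *Cxcr4*, *Lcn2*, *Igf1r* and *Atf4*, and the 32 lost without RV AOB-F 6 and 7 included *Pik3c2g*, *Angpt1*, *Acot2* and *Rcan1*.

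**Figure D1:**
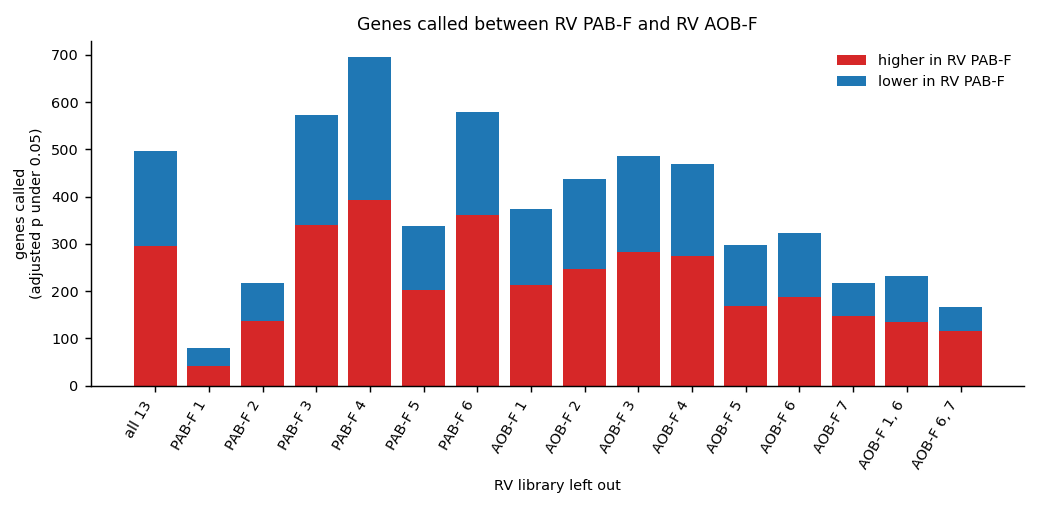
Number of genes called at an adjusted p under 0.05 between RV PAB-F and RV AOB-F, split into higher and lower in RV PAB-F, with all 13 libraries and with single libraries or pairs left out. The count fell from 497 to 80 without RV PAB-F 1 and rose to 695 without RV PAB-F 4.

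Both natriuretic peptides and a few other load-responsive genes were higher in the loaded RV. Of 23 tested members of the natriuretic peptide and fetal gene list 6 were called higher (*Nppa*, *Nppb*, *Acta1*, *Ankrd23*, *Cilp* and *Rcan1*) and 0 lower, beside 2.47% of all genes called higher, with a median log2 difference of 0.342 beside 0.0119 over all genes. Values are given below as the lowest, the median and the highest library of a group, in counts normalised to a common library size. *Nppb*, the gene of B-type natriuretic peptide, stood at 3822, 7209 and 17153 in RV PAB-F, 1676, 2826 and 4387 in RV AOB-F and 1041, 1467 and 2616 in RV Sham-F. Of the 6 RV PAB-F libraries 5 lay above every RV AOB-F library. The log2 difference was 1.57 ± 0.24 (SE; adjusted p = 3.49e-05), and it was 1.26 without RV PAB-F 1 (adjusted p = 0.00203).

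*Nppa*, the gene of atrial natriuretic peptide, reached 909.6, 8677 and 100875 in RV PAB-F, 1026, 1680.0 and 4589 in RV AOB-F and 127, 294 and 644 in RV Sham-F. Both failing groups were above RV Sham-F, by 6.17 (adjusted p = 3.7e-12) and 2.82 (adjusted p = 0.00246) on the log2 scale. Yet the failing groups overlapped: RV PAB-F 3 and 4, at 1217 and 4512, lay within the range of the remote RV and RV PAB-F 6, at 909.6, below it, so that 3 of 6 libraries exceeded every RV AOB-F library. Between them the log2 difference was 3.35 ± 0.59 (adjusted p = 0.000168), and without RV PAB-F 1 it was 1.82 with an adjusted p of 0.0713.

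Skeletal α-actin, *Acta1*, stood at 6089, 30330.2 and 44874 in RV PAB-F and 6079, 8091 and 11574 in RV AOB-F, against 2270.0, 4173 and 9093 in RV Sham-F. In RV PAB-F 4 libraries were above the whole of RV AOB-F, and RV PAB-F 3 and 6 (6089 and 7750.1) lay among them. The log2 difference was 1.64 ± 0.39 (adjusted p = 0.00721), and 1.52 without RV PAB-F 1 (adjusted p = 0.0455). *Ankrd23*, which encodes an ankyrin repeat protein of the titin filament, showed the same split, with 575, 2596 and 5959.8 in RV PAB-F and 395, 778 and 1528 in RV AOB-F. Its log2 difference of 1.62 ± 0.39 (adjusted p = 0.00838) became 1.24 without RV PAB-F 1 (adjusted p = 0.123). *Cilp*, a matrix protein, differed by 2.27 ± 0.47 (adjusted p = 0.00166; 0.102 without RV PAB-F 1). *Rcan1*, an inhibitor of calcineurin, differed by 0.65 ± 0.19 (adjusted p = 0.0336), and its call was lost on leaving out any of 7 single libraries, RV PAB-F 1, 2 and 5 and RV AOB-F 2, 4, 5 and 7.

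Per kilobase of transcript, in the deposited FPKM values, the mean level of *Nppa* was the highest of these genes in RV PAB-F at 2120 ± 3464 (SD, n = 6), followed by *Acta1* at 1315 ± 802 and *Nppb* at 1021 ± 578, an order within the spread of each. In RV AOB-F the order of the means was *Acta1* at 425.5 ± 97.8 (SD, n = 7), *Nppb* at 348 ± 102 and *Nppa* at 210.1 ± 129.5. The spread of *Nppa* in RV PAB-F, 23646 ± 38656 normalised counts (mean ± SD, n = 6), was wider than its mean, with RV PAB-F 1 at 100875. The myosin heavy chains did not pass the test: the log2 difference was -0.20 for *Myh6* (adjusted p = 0.737) and 0.024 for *Myh7* (adjusted p = 0.979). None of 24 sarcomere genes was called in either direction, with a median of -0.225, and *Myl4*, an atrial light chain, overlapped, with 16.5, 32.4 and 207 in RV PAB-F and 13.7, 62.4 and 155 in RV AOB-F.

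**Figure D2:**
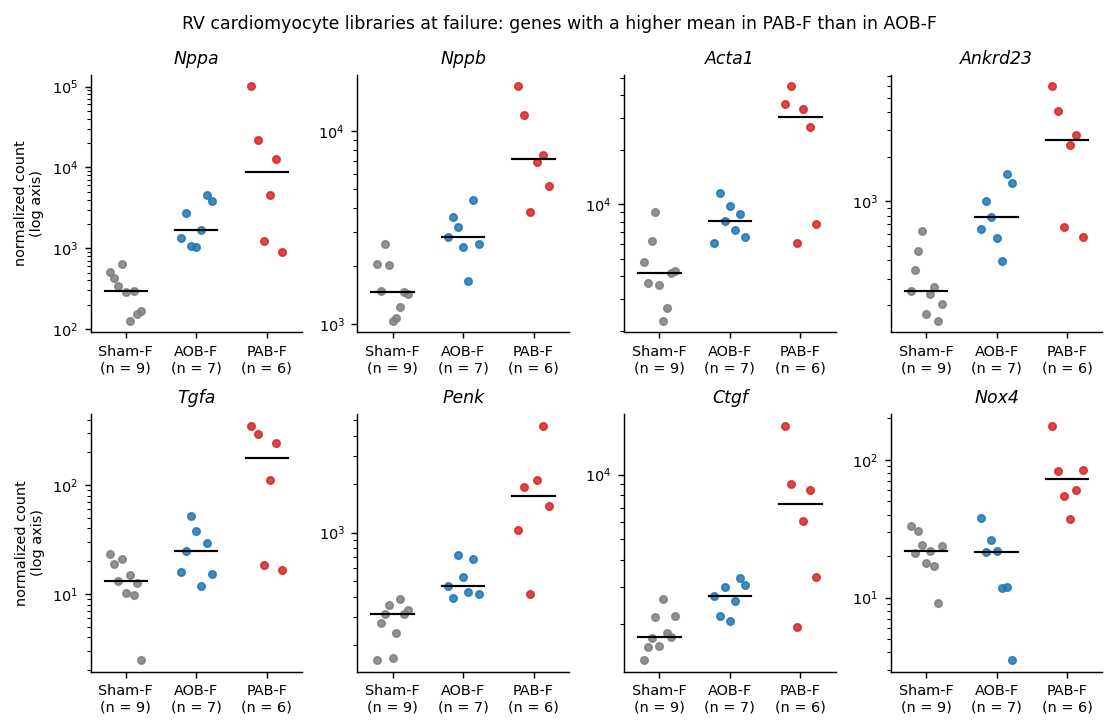
Normalised counts (log axis) of 8 genes in the 9 RV Sham-F, 7 RV AOB-F and 6 RV PAB-F libraries, with a bar at the median of each group. *Nppb* reached 3822 to 17153 in RV PAB-F and 1676 to 4387 in RV AOB-F, and 2 RV PAB-F libraries for *Acta1*, *Ankrd23* and *Tgfa*, and 3 for *Nppa*, did not exceed the highest RV AOB-F library.

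The promoters of 3 of the genes called higher whichever library was left out are shown because all hold the letters GGAATG. These letters are the MCAT motif that TEA domain factors bind in muscle genes. Whether the 3 genes share a control was not tested. The sequences are from RefSeq (GRCr8), from 250 bases before to 50 bases after the start, 5′ to 3′ on the strand of the gene, with GGAATG or its reverse complement CATTCC in capitals.
*Nppb*, chr5:163699758-163700057, plus strand: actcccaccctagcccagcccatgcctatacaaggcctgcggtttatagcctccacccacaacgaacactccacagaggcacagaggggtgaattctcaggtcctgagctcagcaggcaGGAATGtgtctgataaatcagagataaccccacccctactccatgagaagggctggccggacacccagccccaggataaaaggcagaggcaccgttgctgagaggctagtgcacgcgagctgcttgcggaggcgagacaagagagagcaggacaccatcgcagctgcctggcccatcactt
*Acta1*, chr19:68784145-68784444, minus strand: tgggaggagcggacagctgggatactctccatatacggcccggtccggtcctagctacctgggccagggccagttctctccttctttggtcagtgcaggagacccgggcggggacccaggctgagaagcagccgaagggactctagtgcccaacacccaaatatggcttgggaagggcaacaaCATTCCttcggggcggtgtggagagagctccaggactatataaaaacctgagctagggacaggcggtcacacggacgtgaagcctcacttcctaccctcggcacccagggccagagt
*Ctgf* (RefSeq name *Ccn2*), chr1:22624565-22624864, minus strand: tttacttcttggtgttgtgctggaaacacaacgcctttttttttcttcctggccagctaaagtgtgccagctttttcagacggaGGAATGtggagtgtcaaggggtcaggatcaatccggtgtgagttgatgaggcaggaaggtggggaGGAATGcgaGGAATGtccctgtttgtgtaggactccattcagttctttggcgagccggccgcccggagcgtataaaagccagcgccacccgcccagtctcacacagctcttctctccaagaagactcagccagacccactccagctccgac
The motif begins 131 bases before the start in *Nppb*, 67 bases before it on the opposite strand in *Acta1*, and 166, 101 and 92 bases before it in *Ctgf*. A promoter was at hand for 9669 of the 11954 genes tested and 394 of the 497 called. On either strand GGAATG was present in 11.3% of all these promoters, in 11.2% of those of the genes called higher and in 15.5% of those called lower, so its share among the higher genes was that of all genes. Other motifs were searched on both strands in the same promoters. The half-site of nuclear receptors, AGGTCA, was present in 12.2% of all, 13.3% of the higher and 10.6% of the lower genes. The motif of the GATA factors, with the letters AGATAA, was present in 6.3%, 7.73% and 6.83%, and the AP-1 motif, TGAGTCA or TGACTCA, in 3.5%, 5.58% and 4.35%. The CArG box of serum response factor was present in 1.21%, 1.72% and 2.48%. A match describes the letters in this window and is no evidence of binding.

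Growth factor ligands and secreted peptides were among the genes with the largest differences. Of 36 tested members of the growth factor list 4 were called higher (*Angpt2*, *Igf1r*, *Penk* and *Tgfa*) and 1 lower (*Angpt1*), beside 2.47% and 1.69% of all genes, with a median of 0.325. Counts of calls between RV PAB-F and RV AOB-F in the lists that follow, with all libraries in the fit, are to be read beside these same shares. *Tgfa*, a ligand of the epidermal growth factor receptor, stood at 16.5, 177 and 353 in RV PAB-F, 11.8, 25.1 and 51.8 in RV AOB-F and 2.47, 13.2 and 23.2 in RV Sham-F. It was 6.41-fold higher in the loaded RV (log2 difference 2.68 ± 0.46, adjusted p = 0.000112), and 2.35 higher on the log2 scale without RV PAB-F 1 (adjusted p = 0.00273). RV PAB-F 3 and 6, at 18.6 and 16.5, again lay within the range of RV AOB-F. *Penk*, the precursor of enkephalins, stood at 416, 1686 and 4630.1 and 390.4, 466 and 725, with 5 of 6 RV PAB-F libraries above all of RV AOB-F (log2 difference 1.89 ± 0.34, adjusted p = 0.000264). *Hs3st2*, a heparan sulfate sulfotransferase outside this list, was scarce in the remote RV (0.981, 2.39 and 9.90). It reached 5.82, 37.7 and 190.2 in the loaded RV. Its log2 difference, 4.09 ± 0.70 (adjusted p = 0.000112), was 3.43 without RV PAB-F 1 (adjusted p = 0.00322).

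*Angpt1*, the ligand that activates the Tie2 receptor of endothelial cells, went the other way, with 167, 508 and 1114 in RV PAB-F against 896, 1683 and 4239 in RV AOB-F and 1179.5, 1343 and 2060.2 in RV Sham-F. In RV PAB-F 4 libraries lay below every RV AOB-F library. The log2 difference was -1.66 ± 0.36 (adjusted p = 0.0026), with an adjusted p of 0.101 without RV AOB-F 6 and 7. *Igf1r*, the receptor of insulin-like growth factor 1, was higher in all 6 RV PAB-F libraries than in any RV AOB-F library, at 737 to 1034 against 504 to 716. That modest log2 difference of 0.44 ± 0.12 (adjusted p = 0.023) lost its call without RV PAB-F 1 or 5 or RV AOB-F 2 or 7. *Tceal7*, a small nuclear protein, had an adjusted p of 0.0449 that rose past the threshold on leaving out any of 10 single libraries, RV PAB-F 1 among them. Both failing groups were numerically above RV Sham-F for *Tceal7*, with medians of 185, 70.5 and 14.6.

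In the transforming growth factor β (TGFβ) and bone morphogenetic protein list only *Tgfb2* was called among 22 tested genes, and the median was 0.0638. *Tgfb2* stood at 261, 771 and 2210.2 in RV PAB-F, 184, 275 and 766 in RV AOB-F and 96.6, 132 and 323 in RV Sham-F, a log2 difference of 1.49 ± 0.38 (adjusted p = 0.0142). Its highest RV AOB-F library, number 6, was at the median of RV PAB-F. Without RV PAB-F 1 the difference was 1.08 (adjusted p = 0.175), and the call was also lost without RV PAB-F 2. *Tgfb3*, at 209, 283 and 611 against 179.8, 196 and 279, had an adjusted p of 0.158.

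Of the matrix genes, 11 were called, all of them higher in the loaded RV. Among 32 matrix glycoproteins, proteoglycans and proteases 7 were called higher (*Ctgf*, *Ecm1*, *Ltbp2*, *Mfap5*, *Postn*, *Thbs4* and *Wisp2*) and 0 lower, beside 2.47% of all genes called higher, with a median of 0.459. Of 24 collagens and collagen-processing genes 4 were called higher (*Col8a1*, *Loxl2*, *Pcolce* and *Plod2*) and 0 lower, with a median of 0.392 and 23 of 24 values above 0. Without RV PAB-F 1 the calls were 2 (*Ctgf* and *Ecm1*) and 0, against 0.666% over all genes, and the medians were 0.178 and 0.26. The fibroblast markers moved with RV PAB-F 1 as well, as given above, and their part in these differences was not tested.

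*Ctgf* encodes connective tissue growth factor, which cardiomyocytes as well as fibroblasts make. It stood at 1939, 7277 and 16944 in RV PAB-F, 2069, 2705 and 3295 in RV AOB-F and 1364, 1742 and 2622 in RV Sham-F. Of the RV PAB-F libraries 5 were above and 1, number 3, was below all RV AOB-F libraries. The log2 difference of 1.5 ± 0.28 (adjusted p = 0.000293) was 1.10 without RV PAB-F 1 (adjusted p = 0.0246). *Ecm1*, a secreted matrix protein, stood at 511, 1313 and 2464 against 502, 679 and 803 (log2 difference 1.01 ± 0.20, adjusted p = 0.000708; 0.0406 without RV PAB-F 1).

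*Thbs4*, a thrombospondin of stressed muscle, ranged over 4.12, 31.2 and 869 in RV PAB-F and 1.96, 9.55 and 15.3 in RV AOB-F. Although 5 of 6 RV PAB-F libraries exceeded the remote RV, 1 of them, number 1, held most of the counts. Its log2 difference of 4.38 ± 0.83 (adjusted p = 0.000525) was 2.26 without that library (adjusted p = 0.154). *Mfap5*, a microfibril glycoprotein, behaved alike, at 2.03 ± 0.44 (adjusted p = 0.00285) and 1.37 (adjusted p = 0.11). *Fap* and *Pxdn* were named because their libraries did not overlap, so their separation follows from that choice. *Fap*, the fibroblast activation protein, was above every RV AOB-F library in all 6 RV PAB-F libraries, with 53.6, 79.4 and 234 against 17.7, 25 and 46.6 and 16.2, 31.5 and 44 in RV Sham-F. The difference of 1.89 ± 0.29 (adjusted p = 3.49e-05) was kept without RV PAB-F 1, at 1.46 (adjusted p = 0.00203). *Pxdn*, a peroxidase that cross-links collagen IV, was likewise separate at 1024 to 2094 against 337 to 965 (1.02 ± 0.25, adjusted p = 0.0109; 0.0784 without RV PAB-F 1).

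Among the enzymes that process collagen, *Plod2*, a lysyl hydroxylase, stood at 108, 254 and 768 in RV PAB-F and 102, 121 and 169 in RV AOB-F, with a log2 difference of 1.23 ± 0.30 (adjusted p = 0.00801) that became 0.70 without RV PAB-F 1 (adjusted p = 0.257). *Loxl2*, a lysyl oxidase, was above the remote RV in all 6 libraries (97.1 to 284 against 71 to 89.2; adjusted p = 0.0175), and it lost its call without RV PAB-F 1 or 2. *Pcolce*, an enhancer of procollagen cleavage, lost its call without RV PAB-F 1 or 2 or RV AOB-F 1, and *Col8a1*, a short-chain collagen, without RV PAB-F 1 or RV AOB-F 5 (adjusted p up to 0.303 and 0.549).

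The 9 tested fibroblast markers had a median log2 difference of 1.05, and *Fap* and *Postn* among them were called. Several abundant fibroblast genes gave no call in the fit to all libraries. *Col1a1* stood at 522, 957 and 3845 against 457, 753 and 954 (log2 difference 0.90 ± 0.36, adjusted p = 0.14) and *Col3a1* at 981, 2864 and 10842 against 1584, 1693 and 2269 (1.09 ± 0.37, adjusted p = 0.074). For both, RV PAB-F 1 was the highest and RV PAB-F 6 the lowest library of the group. The adjusted p was 0.42 for decorin (*Dcn*), 0.0807 for lumican (*Lum*), 0.338 for versican (*Vcan*), 0.305 for the fibroblast receptor *Pdgfra* and 0.755 for the protease inhibitor *Timp1*. Under 25 alternative settings *Col3a1* was called in 3 and *Lum* in 2. *Timp1* in particular overlapped between the groups, at 21.6 to 369.9 and 37.5 to 159, with medians of 55.5 and 56 that lie above the 27.5 of RV Sham-F. The study named these genes from the same samples, so their direction is no independent evidence.

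**Figure D3:**
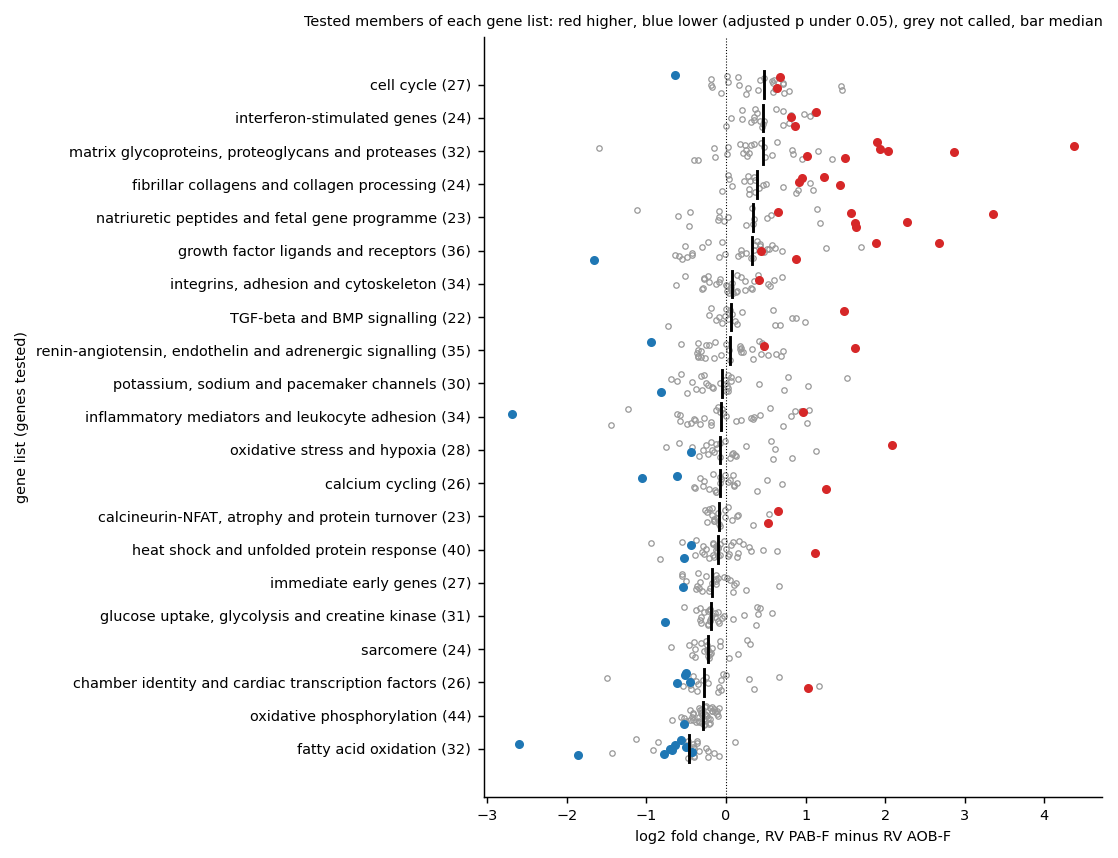
Log2 difference (RV PAB-F minus RV AOB-F) of each tested member of 21 gene lists, coloured where called higher or lower, with a bar at the median of each list. All 44 oxidative phosphorylation genes and 31 of 32 fatty acid oxidation genes lie below 0, and 23 of 24 collagen genes lie above 0.

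Of 24 interferon-stimulated genes tested, 23 had a value above 0, the median was 0.469, and 3 were called higher (*Rsad2*, *Cmpk2* and *Isg20*), beside 2.47% of all genes. *Rsad2*, the antiviral enzyme viperin, stood at 120.1, 163 and 274 in RV PAB-F and 60.9, 85.8 and 102 in RV AOB-F, without overlap (log2 difference 1.13 ± 0.31, adjusted p = 0.0248). Its call was lost without RV PAB-F 1 or 2 or RV AOB-F 5. *Cmpk2*, a mitochondrial nucleotide kinase, did not overlap either (86.2 to 150.3 against 35.8 to 81; adjusted p = 0.0481), but the call was lost on leaving out any of 10 single libraries. *Isg20*, an exonuclease, differed by 0.82 ± 0.22 (adjusted p = 0.0179; 0.0975 without RV PAB-F 1). No member of the list was called without RV PAB-F 1, where the median was 0.47.

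Inflammatory mediators had no common direction. Of 34 tested, *Ptgds* was called higher and *Lcn2* lower, and the median of -0.0649 turned to 0.48 without RV AOB-F 6 and 7 and was -0.557 without RV PAB-F 1. *Lcn2*, an iron-binding acute-phase protein, stood at 41.5, 58.6 and 115 in RV PAB-F, 27.2, 46 and 1798 in RV AOB-F and 30.9, 41.6 and 71.6 in RV Sham-F. The high values were those of RV AOB-F 6 (1798) and 7 (1067), whose macrophage and neutrophil markers were high too. RV PAB-F 1, with a still larger macrophage share, held 115 (114.6). The part of these cells was not tested. The log2 difference of -2.69 ± 0.62 (adjusted p = 0.00586) was -1.63 without RV AOB-F 6 (adjusted p = 0.0996) and turned to 0.71 without both (adjusted p = 0.484). Interleukin 1β (*Il1b*) ranged over 42.2, 66.5 and 512 and 49.3, 68 and 271, cyclooxygenase 2 (*Ptgs2*) over 37.1, 75.2 and 698 and 55.2, 72 and 147, and neither was called (adjusted p = 0.751 and 0.215). For *Tlr4*, a receptor of innate immunity, 5 RV PAB-F libraries were above and 1 was below all of RV AOB-F (log2 difference 0.55 ± 0.29, adjusted p = 0.28). *Ptgds*, a prostaglandin D2 synthase, lost its call on leaving out any of 7 libraries. *Cxcr4* and *Tnfrsf26* were named because their libraries did not overlap, so their separation follows from that choice. *Cxcr4*, the receptor of the chemokine CXCL12, was above the remote RV in all 6 libraries, at 221 to 478 against 101 to 192 (1.03 ± 0.29, adjusted p = 0.0299), and lost its call without RV PAB-F 1 or 2 or RV AOB-F 5, 6 or 7. The receptor gene *Tnfrsf26* behaved alike, at 65.9 to 181 against 36.3 to 51.7 (adjusted p = 0.0202; 0.195 without RV PAB-F 1).

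Fatty acid oxidation is the main fuel pathway of the adult heart. Of its 32 genes tested, 9 were called lower in the loaded RV (among them *Acot1*, *Acot2*, *Cpt1a*, *Decr1*, *Eci1*, *Etfb*, *Hadha* and *Slc27a1*) and 0 higher, beside 1.69% of all genes called lower. A value below 0 was found for 31 of them, and the median was -0.461. Against RV Sham-F the list's medians were -0.334 for RV PAB-F and 0.105 for RV AOB-F. Calls numbered 2 without RV PAB-F 1 (*Eci1* among them), 4 without RV AOB-F 1 and 6, and 1 (*Eci1*) without RV AOB-F 6 and 7, with medians of -0.353, -0.487 and -0.386. Over all genes these fits called 0.666%, 1.93% and 1.39% in either direction.

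*Eci1*, which shifts the double bond of unsaturated fatty acids into place for β-oxidation, stood at 1899, 3029.9 and 3775 in RV PAB-F, 3685, 4352 and 6662 in RV AOB-F and 2923, 3820.1 and 4416 in RV Sham-F. Of its RV PAB-F libraries 5 were below every RV AOB-F library. Its log2 difference of -0.70 ± 0.14 (adjusted p = 0.000995) was -0.60 without RV PAB-F 1 (adjusted p = 0.0191) and -0.55 without RV AOB-F 6 and 7 (adjusted p = 0.0294). *Acot2*, a mitochondrial thioesterase, did not overlap between the groups (1999, 4102 and 4643 against 4751, 5508 and 10260.4), and its log2 difference of -0.78 ± 0.18 (adjusted p = 0.00576) became -0.65 without RV PAB-F 1 (adjusted p = 0.0624). *Slc27a1*, a fatty acid transporter, differed by -0.56 ± 0.13 on the log2 scale (adjusted p = 0.00576) and lost its call without RV PAB-F 1 or RV AOB-F 7.

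Every one of 44 oxidative phosphorylation genes had a value below 0, with a median of -0.289, but 1 was called, *Atp5c1*, the γ subunit of ATP synthase. It stood at 4883, 9042 and 11347 in RV PAB-F and 10937, 12641 and 14159.9 in RV AOB-F (log2 difference -0.53 ± 0.15, adjusted p = 0.027), and lost its call without RV PAB-F 1, 2 or 5 or RV AOB-F 5. These 44 genes share libraries and are not independent of each other, and their signs also depend on the scaling of each library. The list median kept its sign under both other scalings. Of 31 genes of glucose uptake and glycolysis 1 was called lower, *Eno3*, the muscle enolase, at 2099, 3392 and 6204 against 3169, 6691 and 8859 (-0.77 ± 0.20, adjusted p = 0.0129), and it lost its call without RV PAB-F 1 or 2.

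**Figure D4:**
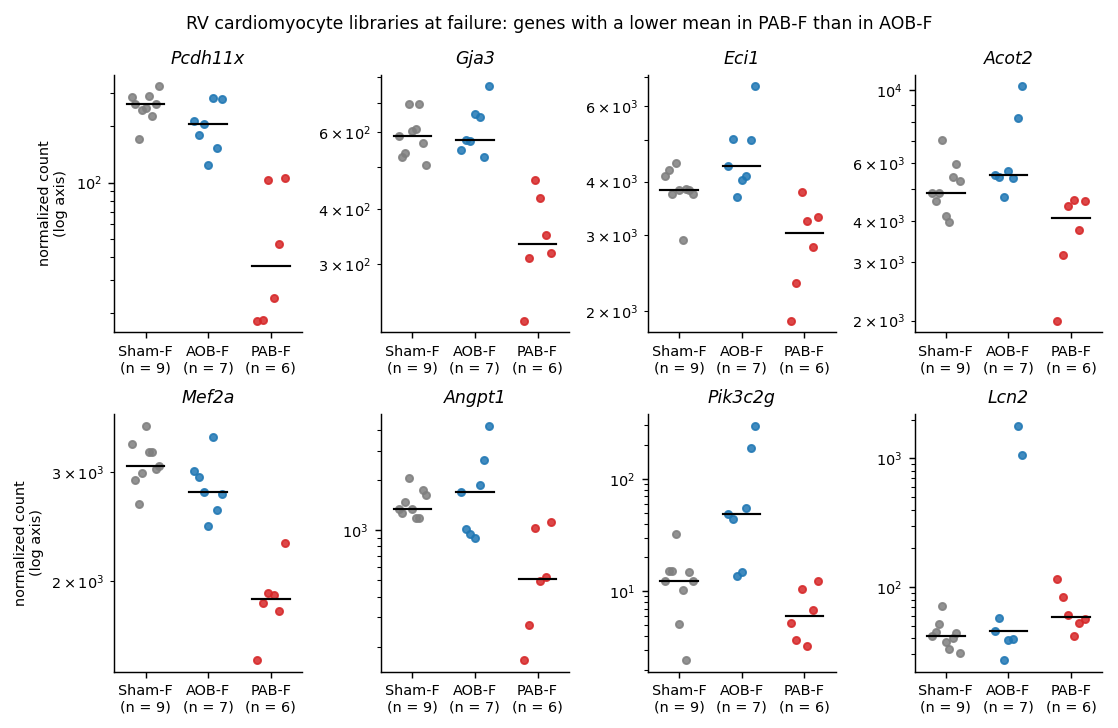
Normalised counts (log axis) of 8 genes called lower in RV PAB-F, in the 9 RV Sham-F, 7 RV AOB-F and 6 RV PAB-F libraries, with a bar at the median of each group. *Pcdh11x*, *Gja3*, *Acot2*, *Mef2a* and *Pik3c2g* did not overlap between the failing groups, whereas *Lcn2* did. *Pcdh11x* and *Pik3c2g* were chosen for that separation.

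In the calcium cycling list, 26 genes tested, *Cacna1g* was called higher and *Ppp1r1a* and *S100a1* lower (beside 2.47% and 1.69% of all genes). Without RV PAB-F 1 only *Ppp1r1a* was called, beside 0.666% of all genes. *Cacna1g*, the T-type calcium channel of the fetal ventricle, stood at 319, 562 and 2419 in RV PAB-F and 307, 338 and 427 in RV AOB-F, with RV PAB-F 1 far above the rest. Its log2 difference of 1.25 ± 0.25 (adjusted p = 0.000821) was 0.59 without that library (adjusted p = 0.171). *Ppp1r1a*, an inhibitor of protein phosphatase 1, was lower in all 6 libraries, at 16.9, 42 and 57.1 against 68.3, 87.2 and 103 and 50.7, 88.1 and 124 in RV Sham-F, with a log2 difference of -1.06 ± 0.20 (adjusted p = 0.000581; 0.00991 without RV PAB-F 1). *S100a1*, a calcium sensor that supports contraction, was below all RV AOB-F libraries in 5 of 6 (adjusted p = 0.0371) and lost its call on leaving out any of 7 libraries. Of 30 ion channel and gap junction genes 1 was called, *Gja3*, the gene of connexin 46, which at 223, 333 and 467 lay wholly below the 526, 574 and 764 of RV AOB-F. The difference of -0.81 ± 0.18 (adjusted p = 0.00323) was -0.72 without RV PAB-F 1 (adjusted p = 0.0368). *Gabrb2*, a subunit of the GABA-A receptor, was lower at 24.7 to 238 against 277 to 401 (adjusted p = 0.0104, and 0.079 without RV PAB-F 1). It was named because its libraries did not overlap, so its separation follows from that choice.

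Of 26 cardiac transcription factors tested, 4 were called lower (*Mef2a*, *Meis1*, *Tbx5* and *Zfpm2*) and 1 higher (*Hopx*), beside 1.69% and 2.47% of all genes, with a median of -0.273. None was called without RV PAB-F 1, *Meis1* included, where the median was -0.203. *Mef2a*, a regulator of muscle genes, stood at 1487, 1869 and 2299 in RV PAB-F and 2457, 2781 and 3416 in RV AOB-F without overlap. Its log2 difference of -0.61 ± 0.16 (adjusted p = 0.0155) was -0.55 without RV PAB-F 1 (adjusted p = 0.0976). *Zfpm2*, a partner of GATA4, was also separate (489.7 to 714 against 801 to 969.5; adjusted p = 0.0354), and *Tbx5*, a T-box factor of the heart, had an adjusted p of 0.0456. These calls ended on leaving out any of 6 libraries for *Zfpm2* and 9 for *Tbx5*. *Hopx*, a homeodomain protein of the developing heart, stood at 542, 749.9 and 1453 against 291, 404 and 623 (1.03 ± 0.26, adjusted p = 0.0111) and lost its call without RV PAB-F 1 or 2. The sarcomere-associated LIM protein gene *Fhl2*, at 10064, 19914 and 25557 against 19942, 25895 and 30135, was not called (adjusted p = 0.0887).

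Hormone and second messenger genes gave 2 higher and 1 lower call among 35. *Npr3*, the clearance receptor of natriuretic peptides, stood at 259.8, 1044 and 2391 in RV PAB-F, 226, 381 and 444 in RV AOB-F and 253, 282 and 467 in RV Sham-F, with 4 RV PAB-F libraries above the remote RV. The log2 difference was 1.63 ± 0.36 (adjusted p = 0.00416), and 1.25 without RV PAB-F 1 (adjusted p = 0.0763). *Pde2a*, a phosphodiesterase stimulated by cyclic GMP, was above the remote RV in all 6 libraries, at 1209 to 1693 against 724 to 1205 (0.48 ± 0.13, adjusted p = 0.0167), and lost its call without RV PAB-F 1 or 2 or RV AOB-F 7. *Rgs2*, a brake on Gq signalling, differed by -0.95 ± 0.27 (adjusted p = 0.0281), a call lost on leaving out any of 7 libraries. *Pde1a*, at 44.7 to 146 and 47 to 88, was not called (adjusted p = 0.405).

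*Nox4*, an NADPH oxidase that makes hydrogen peroxide, was the 1 gene of 28 in the oxidative stress and hypoxia list to be called higher. It stood at 37.1, 72 and 177 in RV PAB-F, 3.53, 21.5 and 38 in RV AOB-F and 9.20, 21.7 and 33 in RV Sham-F, with 5 of 6 RV PAB-F libraries above the remote RV. The log2 difference of 2.08 ± 0.35 (adjusted p = 7.51e-05) was 1.72 without RV PAB-F 1 (adjusted p = 0.00291). *Gclm*, the modifier subunit of glutathione synthesis, was lower without overlap (329.5 to 518 against 552 to 773; adjusted p = 0.0238) and lost its call without RV PAB-F 1 or 2 or RV AOB-F 6.

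The remaining lists held 1 to 3 calls each. Of 40 heat shock and unfolded protein genes *Hsp90aa1* was higher and *Atf4* and *Hyou1* lower, and the stress factor *Atf4* was separate in all libraries (1295 to 2027 against 2248 to 2663; -0.53 ± 0.15, adjusted p = 0.0248). The immediate early gene *Fos* was lower among 27 (adjusted p = 0.0481). Among 27 cell cycle genes cyclin D2 (*Ccnd2*) and *Plk2* were higher and *Tyms* lower, with a list median of 0.477, and *Ccnd2* differed by 0.64 ± 0.17 (adjusted p = 0.0173). The protease *Ctsl* and *Rcan1* were higher among 23 genes of calcineurin signalling and protein turnover. Talin (*Tln1*), which links integrins to actin, was the 1 call of 34 adhesion genes (0.42 ± 0.11, adjusted p = 0.0187). None of these calls held without RV PAB-F 1, and leaving out single libraries ended that of *Fos* in 11 cases of 13 and that of *Hyou1* in 10.

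The genes that follow lie outside the lists and were chosen because their libraries did not overlap, so their separation follows from that choice. Over all genes tested 2.36% did not overlap. Chosen by the largest change among called genes whose libraries did not overlap, *Ric3*, a chaperone of acetylcholine receptors, stood at 25.8, 64.2 and 151 in RV PAB-F against 10.9, 19 and 22.9 in RV AOB-F and 10.5, 16.2 and 32 in RV Sham-F. The log2 difference was 2.08 ± 0.38 (adjusted p = 0.000264) and 1.76 without RV PAB-F 1 (adjusted p = 0.00719). *Lrrc16a*, a regulator of actin filament ends, at 1.17 ± 0.21 (adjusted p = 0.000159), *Lppr2* at 1.08 ± 0.24 (adjusted p = 0.00382) and the cilium gene *Nphp4* at 1.02 ± 0.22 (adjusted p = 0.0035) were also called whichever library was left out. *Fxyd6*, a subunit of the sodium pump, differed by 1.26 ± 0.33 (adjusted p = 0.0147) and lost its call without RV PAB-F 1 or RV AOB-F 7.

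In the lower direction *Pcdh11x*, a protocadherin, stood at 18.2, 35.6 and 106 in RV PAB-F against 124, 206 and 284 in RV AOB-F and 171, 262 and 328 in RV Sham-F. It was 3.88-fold higher in the remote RV (log2 difference -1.96 ± 0.34, adjusted p = 0.000112; -1.79 and 0.00203 without RV PAB-F 1). *Lrrc7* (-1.49 ± 0.30, adjusted p = 0.00111), *Atp6ap1l* (-1.30 ± 0.27, adjusted p = 0.0014) and carbonic anhydrase 2, *Car2* (-1.04 ± 0.17, adjusted p = 7.51e-05), were called whichever library was left out. *Asb4*, *Ankrd34a* and *Dusp5*, a phosphatase of ERK kinases, differed by -1.18, -1.16 and -1.09 and lost their calls without RV PAB-F 1 (adjusted p = 0.0629, 0.0611 and 0.0707).

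*Pik3c2g*, a class II phosphoinositide kinase, had the largest negative difference of the genes chosen in this way, -3.75 ± 0.73 (adjusted p = 0.000697). Here the remote RV was the group away from sham: the values were 3.27, 5.97 and 12.4 in RV PAB-F, 13.6, 49 and 299.7 in RV AOB-F and 2.44, 12.4 and 32.5 in RV Sham-F. RV AOB-F 6 and 7 held 188 and 299.7, and without both the difference was -2.33 (adjusted p = 0.0773).

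The LV of the same animals was set beside the RV, since there the load is reversed: LV AOB-F is the loaded and LV PAB-F the remote chamber. LV PAB-F and LV AOB-F differed in 260 genes (2.18%), 49 higher (0.41%) and 211 lower (1.77%) in LV PAB-F. Between the ventricles the group difference itself differed in 268 genes (2.24%), positive in 201 (1.68%) and negative in 67 (0.56%), and with the animal as a block in 914, of which 264 were shared with the 268. It was 48 without the animals AOB-F 1 and 6, and fell to 34 without RV PAB-F 1.

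*Nppa* differed by 3.35 between the groups in the RV and -1.08 in the LV, a ventricle difference of 4.43 (adjusted p = 0.000938). *Hs3st2* gave 4.09 and -1.65 (5.74, adjusted p = 0.00052), and *Tgfa* 2.68 and -0.83 (3.51, adjusted p = 0.000938). *Ankrd23*, at 1.62 and -1.44 (3.06, adjusted p = 0.000938), and *Tgfb2*, at 1.49 and -1.51 (3, adjusted p = 0.000938), had values of opposite sign in the ventricles. In these 5 genes the mean of the loaded chamber was the higher on either side; the LV values alone had adjusted p-values of 0.346, 0.149, 0.35, 0.0352 and 0.0221. *Timp1* had no call in the RV (0.32) but a ventricle difference of 2.38 (adjusted p = 0.0483), with -2.06 in the LV. With the animal as a block this call was lost, at 1.44 (adjusted p = 0.0584), and so was that of *Npr3*, which went from 1.78 to 1.19 (adjusted p = 0.0579). The other 41 of the 43 named genes called for the ventricle difference kept their call in that fit. Many named genes were chosen by their RV difference, which is part of this value.

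Other genes had their difference mainly in the RV. *Nppb* differed by 1.57 in the RV and -0.02 in the LV (1.58, adjusted p = 0.00516), *Ric3* by 2.08 and 0.11 (1.98, adjusted p = 0.0304) and *Penk* by 1.89 and -0.20 (2.09, adjusted p = 0.0111). *Pcdh11x* was lower in the RV (-1.96) and numerically higher in the LV (0.72), a ventricle difference of -2.67 (adjusted p = 0.000938). For *Eci1* the values were -0.70 and 0.049 (-0.75, adjusted p = 0.0262). *Pik3c2g* and *Lcn2*, by contrast, were lower in PAB-F in both ventricles, at -3.75 and -3 and at -2.69 and -2.61, and had no ventricle difference past the threshold (adjusted p = 0.753 and 0.97). Over all genes the ventricle difference was called positive for 1.68% and negative for 0.56%. By list, it was called positive for 7 and negative for 1 of the 23 fetal programme genes, positive for 9 of 32 matrix genes and negative for 4 of 32 fatty acid oxidation genes. These list counts were not repeated without RV PAB-F 1, where the calls over all genes fell from 268 to 34.

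**Figure D5:**
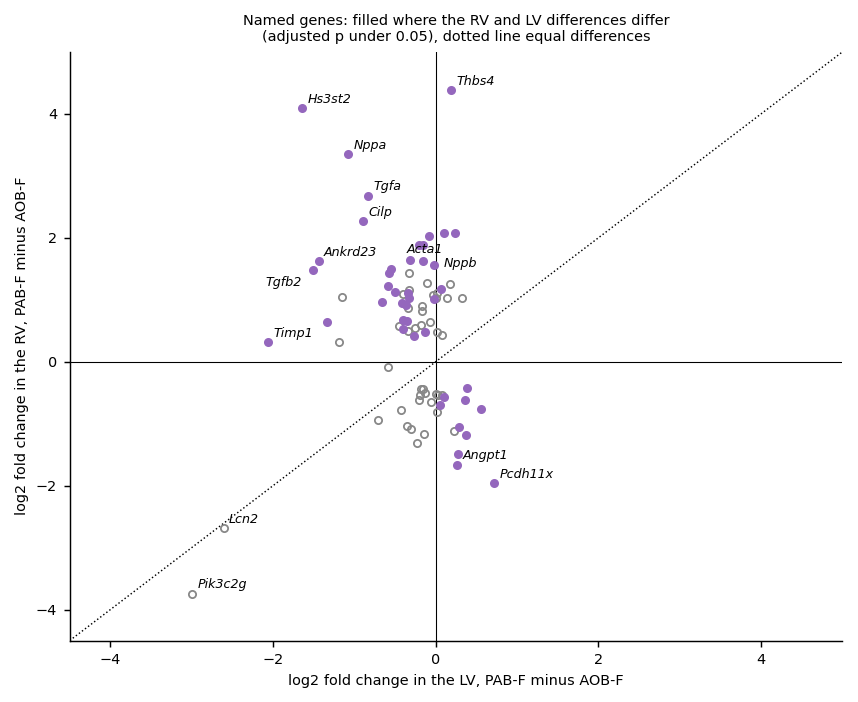
Log2 difference between PAB-F and AOB-F in the LV (x axis) and in the RV (y axis) for the named genes, filled where the ventricle difference was called, with a dotted line where both are equal. *Nppa* lies at 3.35 in the RV and -1.08 in the LV and *Pcdh11x* at -1.96 and 0.72, whereas *Pik3c2g* lies at -3.75 and -3.00.

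At the compensated stage, where 4 of 6 PAB-H but 2 of 6 AOB-H rats were male, the comparison of loaded with remote RV gave fewer calls. RV PAB-H differed from RV AOB-H in 20 genes (0.167%), 11 higher (0.092%) and 9 lower (0.0753%). A test of the difference between the stages called 0 genes in edgeR and 0 in DESeq2, with 348 at an unadjusted p under 0.05. The stages are therefore not shown to differ for any single gene. At the H stage the log2 differences were 2.47 for *Nppa*, 1.95 for *Acta1*, 1.71 for *Tgfa*, 5.39 for *Thbs4* and -1.45 for *Pcdh11x*, with adjusted p-values of 0.057, 0.0159, 0.115, 0.0013 and 0.0341. For *Nppb*, *Penk*, *Ctgf* and *Eci1* they were 0.58, 0.94, 0.68 and -0.32. The list medians at this stage were 0.482 for the fetal programme, 0.802 for collagens, 1.02 for matrix genes and -0.202 for fatty acid oxidation.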

How the data were processed

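Cardiomyocyte RNA, depleted of ribosomal RNA, was sequenced from both ends from the RV and LV of 41 rats (82 libraries, 12 groups). For the raw counts the authors trimmed the reads with Trim Galore, aligned them to the rat genome Rnor6.0 with STAR in an nf-core pipeline and counted them per gene with featureCounts, leaving out reads that overlap more than 1 gene. The authors' normalized counts, a signal for each gene obtained with DESeq2 1.28.1, entered no test. The FPKM values deposited by the authors were used for levels between genes. The table holds 17337 genes, and 0 of its columns lacked a sample.

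Counts were tested with edgeR 4.0.16 in R 4.3.3: a single quasi-likelihood model of the 82 libraries with 1 coefficient for each of the 12 groups, TMM scaling, the 11954 genes that passed filterByExpr, contrasts, and Benjamini-Hochberg adjustment over all genes tested, called at an adjusted p under 0.05. The ventricle difference is the RV difference minus the LV difference, and the stage difference that at F minus that at H. Values of single genes are raw counts over the effective library size, scaled to its mean of 13279120. Precision is limited by 9021262 to 16335647 counts per library and by 6 and 7 animals.

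The libraries, gene lists and rule for named genes were chosen with earlier results of these data known. Named were (a) the 10 called genes with the largest positive and the 10 with the largest negative change whose libraries do not overlap and whose mean exceeds 50, (b) the cardiomyocyte genes the study names, and (c) up to 4 called members of each list, or the member with the smallest p. One gene of this rule, though part of the counts, is not reported here. *Postn*, *Wt1* and other called members appear by name only. *Myh6* and *Myh7* were added after their values were seen.

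The labels pair the RV and LV libraries of each animal. Within a pair, the deviations from the mean of the group correlated at r 0.119 to 0.383 in PAB-F (6 pairs) and 0.0817 to 0.592 in AOB-F (7 pairs), and the animal was taken as a block in an alternative. No library was a copy of another (smallest chi-square per gene 7.48 among the 13). The functions were tested on simulated data. Alternatives were other scalings, no filter, sex as a covariate, DESeq2 1.42.0, limma 3.58.1 with voom weights, smaller fits, males only, a block, other criteria and libraries left out. Promoters were taken from RefSeq (GRCr8).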

Additional observations from a re-analysis of the deposited data

Results flagged for a closer look

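In 24 of 170 groups of values, each the values of 1 named gene in RV PAB-F or RV AOB-F, a single library stood outside the others by Dixon's test. By chance the test flags about 1 in 20 groups of independent, normally distributed values. Here the counts were not on a log scale and the groups share the same 13 libraries, so the 24 cannot be read against that rate. In 19 of the 24 it was RV PAB-F 1. That library held 100875 normalised counts of *Nppa*, with the next of the group at 21521. Its matrix and fibroblast genes stood out at 234 for *Fap*, 494 for *Cilp*, 370 for *Timp1* (369.9), 768 for *Plod2*, 3845 for *Col1a1*, 10842 for *Col3a1* (10842.5), 1401 for *Vcan*, 1341 for *Lum*, 869 for *Thbs4*, 801 for *Col8a1* and 255 for *Mfap5*. Among signalling and inflammatory genes it held 611 of *Tgfb3*, 512 of *Il1b*, 698 of *Ptgs2*, 478 of *Cxcr4*, 181 of *Tnfrsf26*, 2419 of the calcium channel *Cacna1g* and 177 of *Nox4*. The same library was the shallowest of the 13 and had the largest shares of fibroblast (0.194%), macrophage (0.0211%), lymphocyte (0.00254%) and endothelial (0.196%) markers, and the part of the depth or of these cells in its values was not tested.

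In RV AOB-F the libraries outside the others were number 6 for *Isg20* (41.6) and number 2 for *Fap* (46.6). In RV PAB-F they were also number 5 for *Myl4* (207), number 4 for *Hyou1* (4923) and number 3 for *Rgs2* (601).

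Many named genes were chosen by their RV difference, which is part of the ventricle difference. Their share of calls follows in part from that choice. Over all genes tested the ventricle difference was called for 268 (2.24%), and for 34 without RV PAB-F 1, where the named genes were not counted again. For 43 named genes the difference between PAB-F and AOB-F itself differed between the ventricles at an adjusted p under 0.05, given here as the log2 difference in the RV minus that in the LV. With the animal as a block 41 kept their call, and *Timp1*, at 1.44 (adjusted p = 0.0584), and *Npr3*, at 1.19 (adjusted p = 0.0579), lost it. It was positive for load and fetal genes: 4.43 for *Nppa*, 3.06 for *Ankrd23*, 3.17 for *Cilp*, 1.95 for *Acta1*, 1.58 for *Nppb* (1.585), 1.01 for *Rcan1* and 1.78 for *Npr3*. Among ligands and secreted factors it was 3.51 for *Tgfa*, 3 for *Tgfb2*, 2.09 for *Penk*, 2.05 for *Ctgf* and 1.62 for *Ptgds*, and it was 5.74 for the sulfotransferase *Hs3st2*. For matrix genes the values were 4.19 for *Thbs4*, 2.38 for *Timp1*, 2.11 for *Mfap5*, 2.05 for *Fap*, 2.01 for *Col8a1*, 1.98 for *Vcan*, 1.82 for *Plod2*, 1.37 for *Pcolce*, 1.35 for *Pxdn*, 1.284 for *Loxl2* and 1.03 for *Ecm1*. Further positive values were 1.98 for *Ric3*, 1.85 for *Nox4*, 1.63 for *Rsad2*, 1.45 for *Tnfrsf26*, 1.11 for *Lrrc16a*, 1.08 for *Plk2*, 0.94 for *Ctsl*, 0.69 for *Tln1* and 0.61 for *Pde2a*. The negative values were -2.67 for *Pcdh11x*, -1.93 for *Angpt1*, -1.77 for *Lrrc7*, -1.55 for *Asb4*, -1.35 for *Ppp1r1a*, -1.33 for *Eno3*, -0.98 for *S100a1*, -0.82 for *Fhl2*, -0.75 for *Eci1* and -0.67 for *Slc27a1*.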

How the results depend on the processing

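The count of 497 genes stayed between 395 and 653 under other scalings, no filter, sex as a covariate and DESeq2. It was 902 in a fit to the 13 libraries, 1909 in a fit to the RV libraries (484 of the 497 shared) and 1351 with voom weights. Among males only, 4 against 4, edgeR called 0, with 1999 genes at an unadjusted p under 0.05. Without single replicates it ranged from 80 (RV PAB-F 1) to 695, without RV AOB-F 1 and 6 it was 232, and without RV AOB-F 6 and 7, a setting chosen after seeing the data, 167. The 133 genes that met the criteria of the study became 86 with shrunken DESeq2 fold changes, 243 with a mean above 10, 77 with voom weights and 57 (RV PAB-F 1) to 180 without single replicates. The ventricle difference, 268 genes, became 172 without a filter, 48 without AOB-F 1 and 6 and 134 without AOB-F 6 and 7 (both ventricles of these animals), and 34 (RV PAB-F 1) to 469 (LV AOB-F 5) without single replicates. The stage difference called 0 genes under every alternative run. RV PAB-F and RV AOB-F share replicate numbers, but same-numbered libraries did not deviate together (r -0.251 to 0.189, 2 of 6 best with their own number). With the replicate number as a block the counts were 68 (55 shared) and 78. With the animal as a block, the paired fit of the ventricle difference gave 914. Of the 72 called genes of the rule, 8 kept their call under all 25 alternatives but males only, and *Hs3st2* under the 20 in which it was tested. Directions turned for genes without a call: *Timp1* -0.13 and *Il1b* -0.17 with voom weights, and, over the single replicates left out, *Timp1* from -0.73 to 0.56, *Il1b* from -0.81 to 0.73, *Ptgs2* from -0.25 to 1.26 and *Vcan* from -0.10 to 0.81, each lowest without RV PAB-F 1. *Myl4* went from -0.09 to 0.032 without RV AOB-F 1 and 6 and ranged from -1.15 to 0.33 without single replicates. *Lcn2* turned to 0.83 in males and 0.71 without RV AOB-F 6 and 7. The causes were not tested.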
